A study of Mus musculus with 8 samples.

Results

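The 10 genes described here store fatty acids in lipid droplets, free them from coenzyme A, oxidise them, or control their release from lipoproteins. They were found by symbol (Plin2, Acot1, Acot2, Ech1, Cpt1a, Hadha, Acadm, Acadl, Acadvl and Angptl4), and each had 1 row among the 46477 rows of the deposited table. The study sequenced B16-F10 cells, a melanoma line of the mouse, after 24 hours on the matrix that smooth muscle cells had left behind. There was 1 library for each of 8 conditions, and the labels name no replicate cultures. The matrix came from smooth muscle cells given siKLF4-siFN (both siRNAs), siFN, siKLF4 or the control siNT for 72 hours and then held for 72 hours in TCM or SFM, after which they were lysed. The labels do not spell out these media, and TCM is read here as the tumor conditioned media of B16-F10 cells that the series title names. All libraries thus come from the same untransfected melanoma line, and the siRNAs reached only the cells that made the matrix. Values are FPKM, sequenced fragments relative to gene length and library size, and differences are on the log2(FPKM + 1) scale, which compresses changes of genes below 1 FPKM.

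The genes were chosen by their roles together with earlier results of the same 8 libraries in view, selected on measured values such as higher Acot2 and Plin2 values in TCM siNT than in SFM siNT. Every contrast of these libraries therefore counts as used in the choice, and the values of the 10 genes are given as a description. They were part of the fits to all genes, and counts of them past limma's threshold stand beside the share of all genes past it. No p-value is printed for them and nothing is read from those counts. Standard errors beside differences come from limma models fitted to all genes, in which libraries that share a medium or siRNA stand in for replicates. These errors therefore also hold treatment differences that the models leave out.

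As background, cells keep surplus fatty acids as neutral lipid in droplets coated with perilipins, and burn them after activation to acyl-CoA. Long chains enter mitochondria through the carnitine shuttle, are shortened by acyl-CoA dehydrogenases and the trifunctional protein, and can be set free again by acyl-CoA thioesterases. Nuclear receptors of the PPAR family, paired with RXR, are known to raise many of these genes in liver, muscle and fat, Plin2, Angptl4, Acot1, Acot2, Cpt1a and Ech1 among them. Melanoma cells are known to take up fatty acids and to form lipid droplets.

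RefSeq start site windows (GRCm38.p6, the assembly also called mm10) were found for 9 of the 10 genes, running from 250 bases before to 50 bases after the start. The windows of Plin2 and Acot2 are shown because these genes had the highest levels of the set and ranged together across the libraries, and that of Acot1 because its neighbour Acot2 did not share its pattern. The Plin2 window lies at chr4:86670010-86670309 on the minus strand, that of Acot2 at chr12:83987611-83987910 and that of Acot1 at chr12:84009252-84009551, both on the plus strand. Capitals mark the E-box CACGTG, which starts 4 bases before the start site of Plin2.
Plin2: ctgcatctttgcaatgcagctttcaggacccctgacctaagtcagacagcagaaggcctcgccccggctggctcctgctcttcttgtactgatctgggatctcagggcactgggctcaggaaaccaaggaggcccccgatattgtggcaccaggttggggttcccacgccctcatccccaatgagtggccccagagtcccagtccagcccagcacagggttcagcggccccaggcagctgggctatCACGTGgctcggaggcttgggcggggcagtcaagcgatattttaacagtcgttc
Acot2: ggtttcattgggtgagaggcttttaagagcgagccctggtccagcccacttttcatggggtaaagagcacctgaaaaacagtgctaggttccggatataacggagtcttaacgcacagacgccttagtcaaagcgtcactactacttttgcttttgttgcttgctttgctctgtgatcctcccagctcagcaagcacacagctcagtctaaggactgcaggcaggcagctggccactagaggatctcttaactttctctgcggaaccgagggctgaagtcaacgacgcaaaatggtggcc
Acot1: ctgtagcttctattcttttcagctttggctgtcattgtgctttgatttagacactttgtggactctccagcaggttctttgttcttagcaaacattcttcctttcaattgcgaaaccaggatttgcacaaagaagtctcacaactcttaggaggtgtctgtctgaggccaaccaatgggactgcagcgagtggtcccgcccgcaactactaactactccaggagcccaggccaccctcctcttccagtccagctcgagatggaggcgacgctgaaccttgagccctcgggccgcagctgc
CACGTG, searched on both strands, occurred in 1 of the 9 windows and in 7.15% of all 32851 windows in the table. A PPAR type repeat, AGGNCA followed by any 1 base and AGGNCA again, was in none of the 9 and in 0.381% of all windows, and the ATF4 type element TGATGNAA was in none and in 3.97%. A match is only a run of letters, and sites farther from the start were not searched. The Acot1 and Acot2 windows shared 0 of 289 stretches of 12 bases.

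With 1 library per condition, no value has a replicate of its own. Depth was estimated from the steps between low FPKM values at 11600000 to 23100000 reads, and these estimates are approximate. At these depths and over annotated exon lengths, the lowest library value corresponded to about 359 reads for Plin2, 413 for Acot2 and 451 for Hadha, but to about 1.35 reads for Angptl4. Melanocyte markers had a summed FPKM of 351 to 554 over 7 genes, most of it from Tyrp1, Pmel and Dct. Tyr was low at 1.32 to 4.07 FPKM, and Mitf, at 0.131 to 0.840, did not reach a mean of 1. Of 6 adipocyte markers, 5 were listed at 0 throughout, and their sum was at most 0.0300 FPKM. The sum of 6 smooth muscle markers was 0.98 to 1.59 FPKM, most of it from Des at 0.903 to 1.48. Acta2 was listed at 0 throughout, and Myh11, Tagln, Cnn1 and Lmod1 stayed at or below 0.180 FPKM. The sum of 6 fibroblast markers was 0.0761 to 0.149 and that of 4 hepatocyte markers 0 to 0.0910, while of 5 macrophage markers only Cd68 reached a mean of 1. In RNA from a whole culture, fewer expressing cells and less RNA per cell cannot be told apart.

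**Figure D1:**
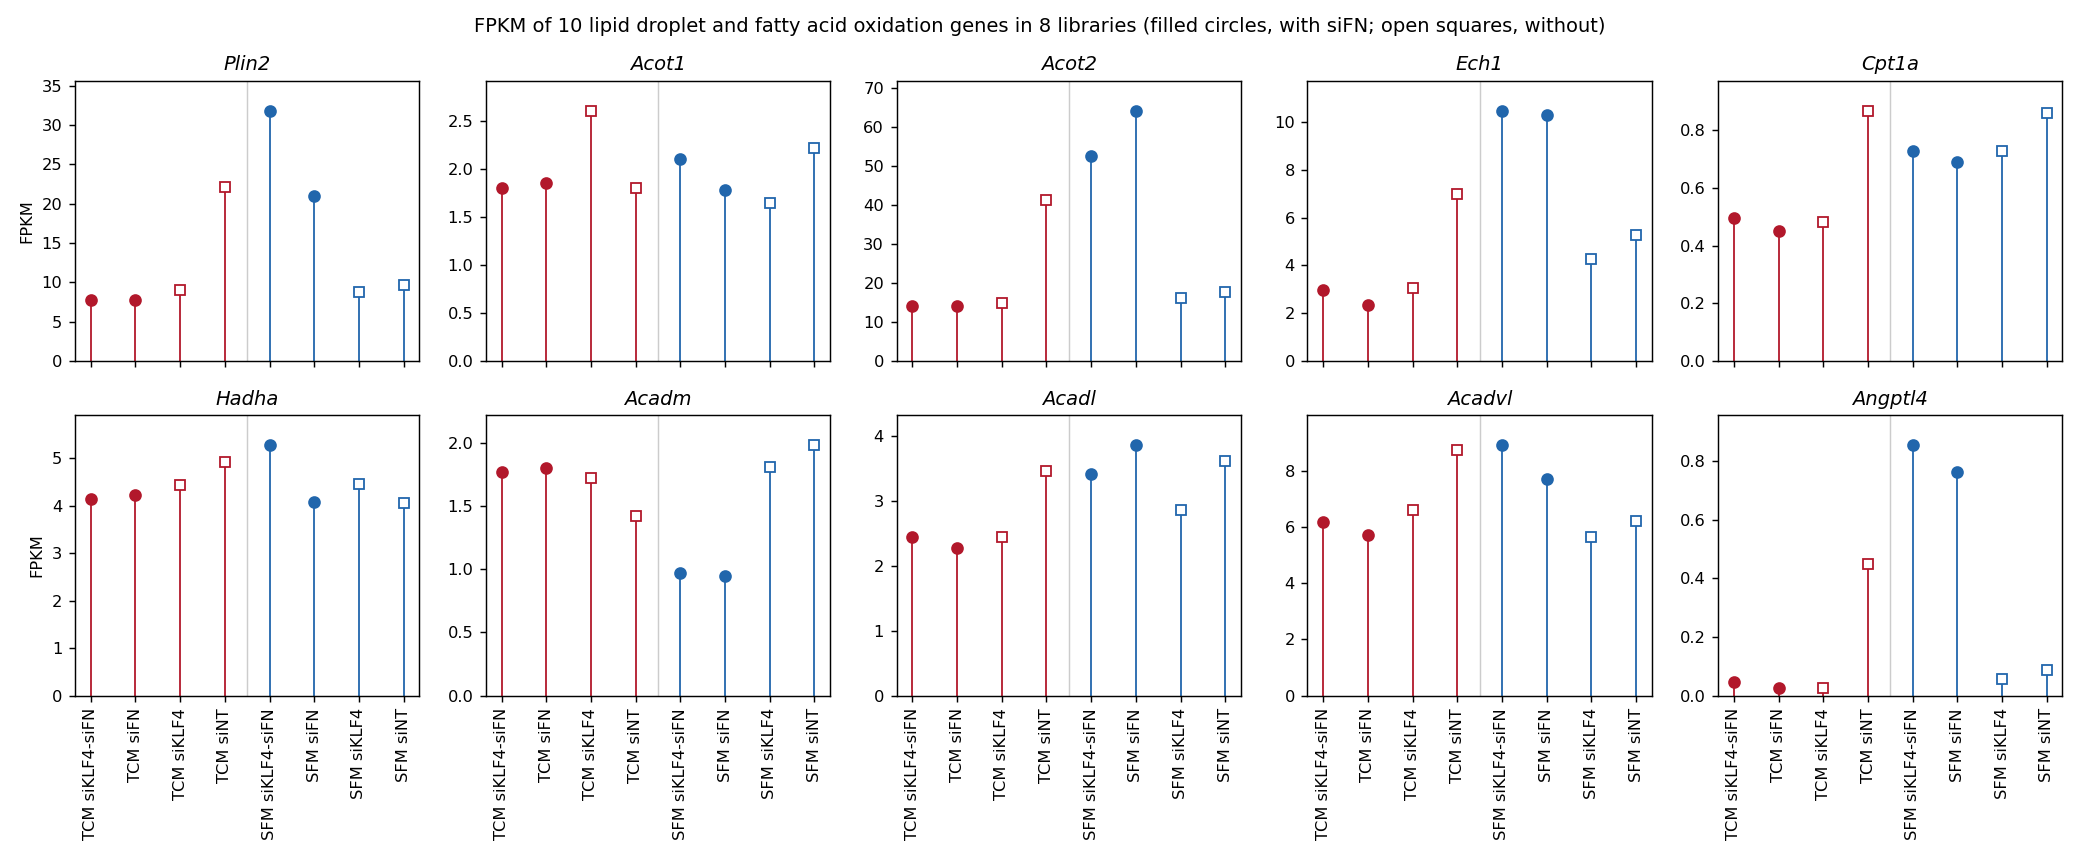
FPKM (vertical axes, each starting at 0) of the 10 genes in the 8 libraries, TCM in red and SFM in blue, with filled circles for siFN and open squares for libraries without it; each point is 1 library, with no error bar. Plin2, Acot2, Ech1 and Angptl4 stood highest in SFM siKLF4-siFN, SFM siFN and TCM siNT, and Acadm lowest in the same libraries.

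Among storage and thioesterase genes, Plin2 and Acot2 varied most and in the same libraries. Plin2 (chromosome 4, 86648386 to 86670060, minus strand) encodes perilipin 2, the coat protein of lipid droplets in most cells that are not adipocytes. In the TCM libraries it stood at 7.77 FPKM with siKLF4-siFN, 7.81 with siFN, 9.06 with siKLF4 and 22.1 with siNT. On SFM matrix it stood at 31.8 with siKLF4-siFN, 20.9 with siFN, 8.80 with siKLF4 and 9.70 with siNT. The SFM libraries with siFN and TCM siNT were thus high, and the other 5 libraries lay close together.

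Acot2 (chromosome 12, 83987861 to 83993873, plus strand) encodes the mitochondrial acyl-CoA thioesterase of this family and had the highest mean level of the set, 29.3 FPKM. Its TCM values were 14.0 with siKLF4-siFN, 14.1 with siFN, 15.0 with siKLF4 and 41.2 with siNT. Its SFM values were 52.4 with siKLF4-siFN, 64.0 with siFN, 16.2 with siKLF4 and 17.8 with siNT. The same 3 libraries stood apart as for Plin2, although the order of the SFM siKLF4-siFN and SFM siFN libraries was the other way round.

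Acot1 (chromosome 12, 84009490 to 84018371, plus strand), the cytosolic thioesterase encoded next to Acot2, was far lower and did not follow it. It ranged over the TCM libraries from 1.81 FPKM with siNT to 2.60 with siKLF4, and over the SFM libraries from 1.65 with siKLF4 to 2.22 with siNT. The highest Acot1 value, in TCM siKLF4, fell in a library where Acot2 was low. Of the 50 base stretches in coding transcripts, 23.5% of those of Acot1 also occur in Acot2 and 24.5% of those of Acot2 in Acot1. How the authors' counting divided reads from such stretches is not given in the sources used here, so the level of Acot1 is uncertain. Summing the pair left the siFN difference on SFM matrix at 1.61 on the log2 scale, against 1.71 for Acot2 alone, and 0.01 for Acot1 alone.

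Ech1 (chromosome 7, 28825217 to 28832247, plus strand) encodes a dienoyl-CoA isomerase that prepares unsaturated fatty acids for oxidation in peroxisomes and mitochondria. Its FPKM with TCM was 2.98 for siKLF4-siFN, 2.36 for siFN, 3.04 for siKLF4 and 6.99 for siNT. With SFM it was 10.5 for siKLF4-siFN, 10.3 for siFN, 4.26 for siKLF4 and 5.26 for siNT. The 3 highest libraries were again SFM siKLF4-siFN, SFM siFN and TCM siNT, but TCM siNT stood nearer to SFM siNT than it did for Acot2.

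Angptl4 (chromosome 17, 33773750 to 33781830, minus strand) encodes a secreted inhibitor of lipoprotein lipase, the enzyme that frees fatty acids from circulating triglyceride. Its level was low everywhere, at 0.0450 FPKM in TCM siKLF4-siFN, 0.0263 in TCM siFN, 0.0267 in TCM siKLF4 and 0.450 in TCM siNT. SFM libraries gave 0.854 with siKLF4-siFN, 0.765 with siFN, 0.0548 with siKLF4 and 0.0883 with siNT. These correspond to about 39.3, 56.8 and 22.1 reads in SFM siKLF4-siFN, SFM siFN and TCM siNT, and to about 1.35 to 7.21 reads in the other libraries. So few reads leave the order among those other libraries unreadable at this depth. Lpl, which encodes the lipase itself, had a mean of only 0.000200 FPKM.

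**Figure D2:**
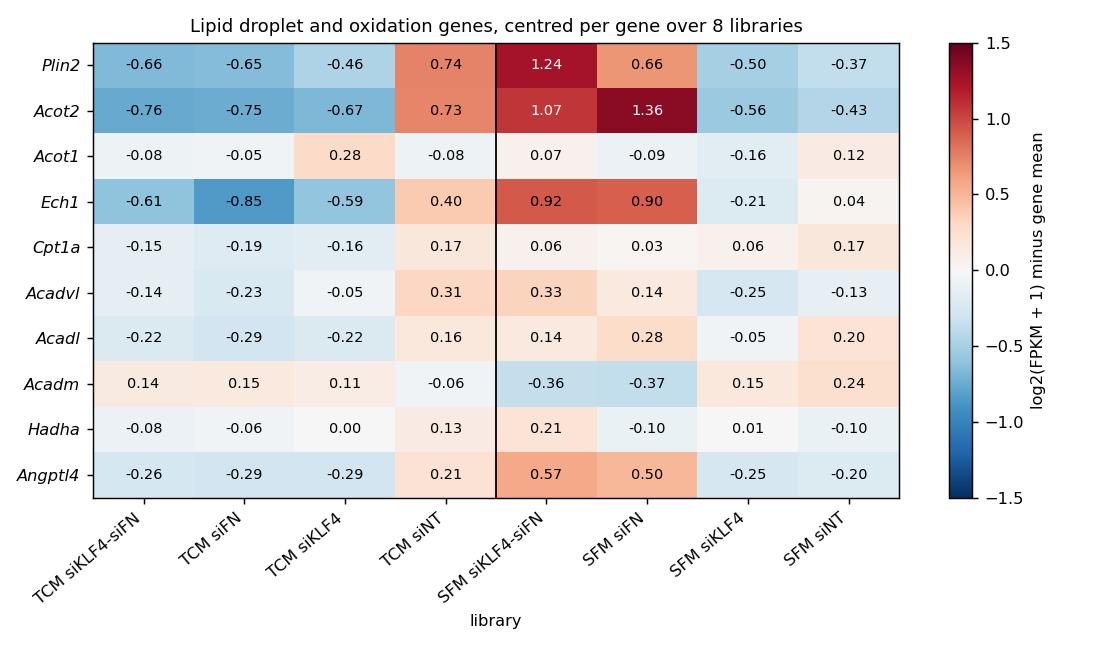
Values of log2(FPKM + 1) minus the gene's mean over the 8 libraries (colour and number in each cell), with genes in rows and libraries in columns, TCM left of the black line. Plin2 is at 0.74 in TCM siNT and at 1.24 and 0.66 in the SFM libraries with siFN, whereas Acadm is at -0.06 in TCM siNT and at -0.36 and -0.37 in those SFM libraries.

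The other oxidation enzymes showed smaller ranges and no pattern that all of them shared. Acadvl was highest and Acadm lowest in SFM siKLF4-siFN, SFM siFN and TCM siNT, while Cpt1a, Acadl and Hadha did not set these libraries apart. Cpt1a (chromosome 19, 3322334 to 3385733, plus strand), the rate-limiting carnitine palmitoyltransferase of the outer mitochondrial membrane, had 0.495, 0.452, 0.482 and 0.866 FPKM in the TCM libraries with siKLF4-siFN, siFN, siKLF4 and siNT. SFM values in the same order were 0.727, 0.689, 0.727 and 0.860 FPKM. TCM siNT thus stood with the SFM libraries, while the SFM libraries with and without siFN overlapped.

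The acyl-CoA dehydrogenases carry out the first step of each oxidation round, for chains of different length. Acadvl (chromosome 11, 70010183 to 70015411, minus strand), for very long chains, had 6.17, 5.73, 6.61 and 8.75 FPKM in the TCM libraries with siKLF4-siFN, siFN, siKLF4 and siNT, and 8.90, 7.69, 5.63 and 6.20 FPKM in the SFM libraries in that order. It was highest in the same libraries as Plin2, with a ratio of highest to lowest of 1.58 against 4.09 for Plin2. Of its 50 base stretches, 23.5% also occur in transcripts of the overlapping gene Dvl2 on the other strand, and the strand setting of the counting is not given in the sources used here.

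Acadl (chromosome 1, 66830839 to 66863277, minus strand), for long chains, had 2.45, 2.27, 2.44 and 3.46 FPKM in TCM siKLF4-siFN, TCM siFN, TCM siKLF4 and TCM siNT, and 3.41, 3.85, 2.86 and 3.61 FPKM in the SFM libraries in that order. Here SFM siNT lay between the SFM libraries with siFN, unlike for Plin2. Acadm (chromosome 3, 153922357 to 153944632, minus strand), for medium chains, ran the other way. Its FPKM was 1.77, 1.80, 1.72 and 1.42 in the TCM libraries and 0.966, 0.947, 1.80 and 1.98 in the SFM libraries, each again with siKLF4-siFN, siFN, siKLF4 and siNT.

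Hadha (chromosome 5, 30118304 to 30155162, minus strand) encodes the alpha subunit of the trifunctional protein, which completes oxidation of long chains. It varied least in proportion, from 4.13 to 4.93 FPKM over the TCM libraries and from 4.05 to 5.27 over the SFM libraries, with a ratio of highest to lowest of 1.30. By mean FPKM, which is scaled per length, the order of the 10 genes was Acot2 (29.3), Plin2 (14.8), Acadvl (6.96), Ech1 (5.70), Hadha (4.45), Acadl (3.04), Acot1 (1.98), Acadm (1.55), Cpt1a (0.662) and Angptl4 (0.289). The SD over the 8 libraries was 20.2 FPKM for Acot2 and 9.05 for Plin2, and it includes differences between conditions. Within every library Acot2 stood above Plin2. For Acadvl, Ech1 and Hadha the SD was 1.32, 3.23 and 0.439. The lowest Acadvl value, 5.63, lay above the highest of Hadha, 5.27, whereas Ech1, at 2.36 to 10.5, overlapped both.

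The siFN comparison on SFM matrix asks whether melanoma cells differed on matrix of smooth muscle cells given siFN. In the 2 libraries with siFN, 5 of the 10 genes (Plin2, Acot2, Ech1, Acadvl and Angptl4) lay above both libraries without it, where 30.6% of the 6917 genes tested did so. Acadm lay below them, as did 30.4% of genes. Differences with siFN were 1.39 ± 0.37 for Plin2, 1.71 ± 0.33 for Acot2, 0.99 ± 0.28 for Ech1, 0.43 ± 0.17 for Acadvl and -0.56 ± 0.11 for Acadm (SE, log2, 2 libraries against 2). For Angptl4, whose mean was below the filter of 1 FPKM and whose SE comes from a fit without it, the difference was 0.76 ± 0.16. On SFM matrix with siKLF4, siFN went with 3 of the 10 genes higher by at least 1 and none lower (2.6% and 7.27% of all genes), and without siKLF4 with 2 higher and none lower (0.795% and 2.86%). Of the 8 genes that passed the filter, limma put 1 higher (Acot2) and 1 lower (Acadm) past the threshold, against 3.17% of all genes higher and 3.76% lower.

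TCM minus SFM with siFN asks whether the medium mattered when the matrix makers had received siFN. Here 7 of the 10 genes had both TCM libraries below both SFM libraries (Plin2, Acot2, Ech1, Cpt1a, Acadl, Acadvl and Angptl4), as did 35.4% of all genes tested, and Acadm had them above, as did 33.9%. Cpt1a and Angptl4, below the filter, are not among the genes tested. Differences were -1.97 ± 0.33 for Acot2, -1.64 ± 0.28 for Ech1, -1.61 ± 0.37 for Plin2, -0.46 ± 0.14 for Acadl, -0.42 ± 0.17 for Acadvl and 0.51 ± 0.11 for Acadm (SE, log2). Angptl4 had -0.80 ± 0.16 and Cpt1a -0.21 ± 0.12 without the filter, while Hadha (-0.12 ± 0.15) and Acot1 (-0.05 ± 0.17) had overlapping libraries. The threshold was passed by 3 of 8 genes as lower (Acot2, Plin2, Ech1) and 1 as higher (Acadm), against 8.53% and 8.41% of all genes. Between TCM siKLF4-siFN and SFM siKLF4-siFN 3 of the 10 genes were lower by at least 1 and none higher, against 2.7% and 7.46% of all genes. Between TCM siFN and SFM siFN 3 were lower and none higher, against 1.82% and 3.22%. Those 3 genes were Plin2, Acot2 and Ech1 in both pairs. This comparison and the one for siFN on SFM matrix share the SFM libraries with siFN, so they are not separate evidence.

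Without siFN the medium difference of Plin2 and Acot2 rested on a single library, TCM siNT. Between TCM siNT and SFM siNT the FPKM ratio was 2.28 for Plin2, 2.32 for Acot2, 1.33 for Ech1 and 1.41 for Acadvl. Between TCM siKLF4 and SFM siKLF4 the same ratios were 1.03, 0.922, 0.714 and 1.18. A log2 difference of at least 1 was reached by 2 of the 10 genes in the first pair, where 0.564% of all genes were that much higher and 1.86% that much lower, and by none in the second, where the shares were 0.405% and 0.911%. Averaged over these pairs the TCM minus SFM difference was 0.57 ± 0.37 for Plin2 and 0.53 ± 0.33 for Acot2, and without TCM siNT it was -0.10 for each. Both TCM libraries lay above both SFM libraries for Acadvl, as for 29.6% of all genes, and below them for Acadm, as for 19.2%.

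**Figure D3:**
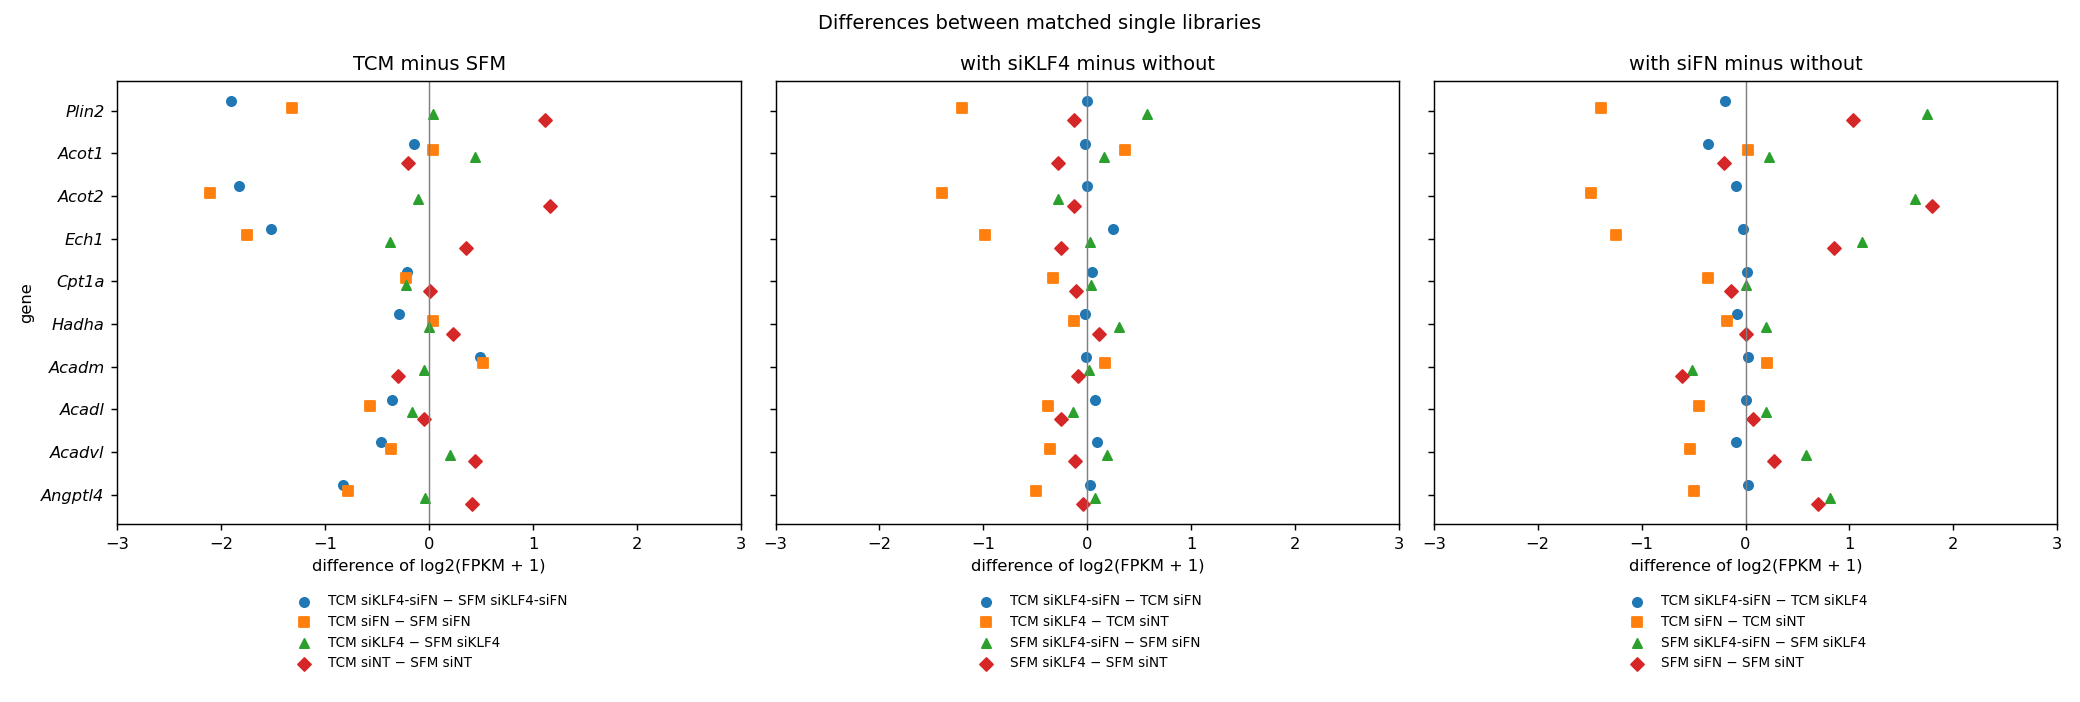
Differences of log2(FPKM + 1) between matched single libraries (horizontal axis) for each of the 10 genes (rows), with 4 pairs for medium (left), siKLF4 (middle) and siFN (right); each symbol is 1 pair of libraries, with no error bar. For Acot2 the TCM minus SFM pairs with siFN lie at -1.83 and -2.11, the siKLF4 pair at -0.11 and the siNT pair at 1.17, while the pairs of Hadha run from -0.29 to 0.30 over the panels.

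The siKLF4 comparison asks whether siKLF4 in the matrix makers altered the melanoma cells. On TCM matrix without siFN, Plin2 had 9.06 FPKM with siKLF4 and 22.1 with siNT, a log2 difference of -1.20, and Acot2 and Ech1 had differences of -1.40 and -0.98. On SFM matrix the differences between siKLF4 and siNT were -0.13 for Plin2, -0.12 for Acot2 and -0.25 for Ech1. Adding siKLF4 to siFN gave -0.01 for both Plin2 and Acot2 on TCM matrix and 0.58 and -0.28 on SFM matrix. The members that differed by at least 1 numbered 2 in the TCM pair without siFN, where 0.217% of all genes were that much lower and 1.56% higher. None did in the other siKLF4 pairs, where the shares lower and higher were 0.116% and 0.173% for TCM with siFN, 2.3% and 0.694% for SFM with siFN, and 0.39% and 0.333% for SFM without siFN. Over all pairs the siKLF4 difference was -0.19 ± 0.50 for Plin2 and -0.45 ± 0.53 for Acot2 (SE, log2), for Acot2 it became 0.09 without TCM siNT, and for Plin2 it ran from -0.65 to 0.34 when leaving out each library.

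The siFN comparison on TCM matrix showed the same dependence. TCM siFN had lower values than TCM siNT by a log2 difference of -1.39 for Plin2, -1.48 for Acot2 and -1.25 for Ech1, and 3 of the 10 genes were lower by at least 1, against 0.246% of all genes, with 1.62% higher. TCM siKLF4-siFN differed from TCM siKLF4 by only -0.20, -0.09 and -0.02 for the same genes, and none of the 10 differed by 1, where 0.361% of all genes were that much lower and 0.419% higher. Both TCM libraries with siFN lay below both without it for 5 of the 10 genes (Plin2, Acot2, Ech1, Hadha and Acadvl), as for 34.2% of all genes, and above them for Acadm, as for 19.6%. TCM siKLF4-siFN and TCM siFN were close throughout, with a widest difference of 0.25 for Ech1.

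Over all 8 libraries, the differences by medium and siFN had wide errors. The additive fit behind them has no medium by siFN term, so a medium difference that changes with siFN enters its error. For Plin2 and Acot2 these differences average over matched pairs of unlike sign, and they describe no single pair. The TCM minus SFM difference was -0.83 ± 0.37 for Ech1, -0.72 ± 0.53 for Acot2 and -0.52 ± 0.50 for Plin2 (SE, log2, 4 libraries against 4). The siFN difference was 0.46 ± 0.53 for Acot2, 0.30 ± 0.50 for Plin2 (-0.17 to 0.82 when leaving out each library) and 0.18 ± 0.37 for Ech1. No gene had all TCM libraries above or below all SFM libraries among the 10, where 3.63% of all genes lay above and 1.82% below. For medium, siKLF4 and siFN limma called 0 of the 8 genes that passed the filter and 0% of all genes, of which 464, 84 and 84 had an unadjusted p under 0.05. The difference of the medium effect with siFN from that without it was -2.50 ± 0.47 for Acot2, -2.18 ± 0.53 for Plin2, -1.62 ± 0.39 for Ech1, -0.74 ± 0.24 for Acadvl and 0.68 ± 0.16 for Acadm. The interaction called 1 of the 8 genes as lower (Acot2) and none as higher, against 3.34% and 3.83% of all genes, and as for the other contrasts this count supports nothing.

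Other measures moved with these libraries. Top2a, a gene of dividing cells, had 0.187 FPKM in SFM siKLF4-siFN, 0.559 in SFM siFN and 1.74 in TCM siNT, and 5.82 to 9.15 in the other libraries. Hyou1, a chaperone of the endoplasmic reticulum, had 42.4, 37.6 and 32.3 FPKM in those 3 libraries and 15.1 to 19.9 in the others. The part of either in the values of the lipid genes was not tested. Of the melanocyte markers, Tyr had 1.32, 1.48 and 1.67 FPKM in those 3 libraries and 2.38 to 4.07 in the others, and Mitf 0.131, 0.205 and 0.284 against 0.557 to 0.840. Mlana (25.9, 24.4 and 30.0 against 31.4 to 50.6) and Sox10 (23.2, 11.9 and 21.8 against 25.0 to 31.5) were likewise lower there, whereas Dct, Pmel and Tyrp1 overlapped. The summed FPKM of all 7 was 524, 351 and 505 in those libraries and 419 to 554 in the others, and the part of these markers was not tested. Estimated depth was 13000000, 21000000 and 13800000 reads in those libraries and 11600000 to 23100000 in the others. Cd68, the macrophage marker that reached a mean of 1, had 2.69 FPKM in SFM siKLF4-siFN, 3.60 in SFM siFN and 4.52 in TCM siNT, and 1.95 to 3.32 in the other libraries. Its part was not tested either. The rest of the macrophage markers did not follow it. Adgre1 was listed at 0 throughout, Ptprc was at most 0.000456 FPKM and Csf1r at most 0.00612. Lyz2 had 0.0933, 0.0577 and 0.0291 FPKM in those 3 libraries and 0.0102 to 0.140 in the others.

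Likeness of pattern was measured by Pearson's r over the 8 libraries, as a description, since all points share libraries that stand apart together. Most like Acot2, the gene with the widest range, were Adh7 (r = 0.997), Leprotl1 (0.995), Dhx33 (0.993), Maoa (0.991) and Srprb (0.989). Maoa, which encodes a monoamine oxidase of the outer mitochondrial membrane, had 3.22 to 7.05 FPKM over the TCM libraries and 3.45 to 11.0 over the SFM libraries. The mean of the 10 genes, centred per gene, was most like Adamtsl5 (0.997), Cldn12 (0.993), Srxn1 (0.992), Surf4 (0.992) and Srprb (0.990). Srxn1, the sulfiredoxin gene, had 82.5 to 87.9 FPKM in the TCM libraries with siKLF4, siFN or both and 149.7 in TCM siNT, and 181 and 156 in the SFM libraries with siFN, against 90.8 and 96.9 in those without.

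Other genes of lipid metabolism were examined as 10 lists with 164 genes, of which 163 had a row and 58 a mean FPKM of at least 1. These are tested genes outside the set, and p-values are adjusted over all 6917 genes with limma. The lists too were drawn up with earlier results of these libraries known. Their p-values and counts are therefore not independent of that choice. In TCM minus SFM with siFN, 5 of the 58 were higher and 5 lower in TCM, a share of 17.2% against 16.9% of all genes. The median of the 58 was -0.07 and that of all genes -0.01. The lower genes were Aup1 (-0.82 ± 0.16, adjusted p = 0.0311), a droplet surface protein, Hilpda (-0.81 ± 0.21, adjusted p = 0.0478), an inhibitor of lipolysis on droplets, Soat1 (-0.59 ± 0.14, adjusted p = 0.0410), which makes cholesteryl esters, Rxrb (-0.49 ± 0.13, adjusted p = 0.0460), a partner of PPARs, and Cpt2 (-0.42 ± 0.10, adjusted p = 0.0424), the inner membrane enzyme of the carnitine shuttle. Their libraries without siFN are set out in the map of other lipid genes.

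The higher genes were Fabp5 (1.49 ± 0.27, adjusted p = 0.0264) and Fabp7 (0.90 ± 0.17, adjusted p = 0.0287), fatty acid binding proteins, Oxct1 (0.90 ± 0.16, adjusted p = 0.0262), which lets cells use ketone bodies, Acsl3 (0.73 ± 0.19, adjusted p = 0.0480), an acyl-CoA synthetase, and Abcd3 (0.46 ± 0.12, adjusted p = 0.0462), a transporter into peroxisomes. Fabp5 had 60.3, 54.4, 53.2 and 24.8 FPKM in the TCM libraries with siKLF4-siFN, siFN, siKLF4 and siNT, and 20.0, 19.5, 48.1 and 43.0 in the SFM libraries in that order. It was thus low in the 3 libraries where Plin2 was high. The count of 10 genes was 0 without either TCM library with siFN and likewise without SFM siKLF4-siFN, 4 without SFM siKLF4 or SFM siNT, 5 without TCM siKLF4 or TCM siNT, and 23 without SFM siFN. Scaling libraries by the median of ratios gave 3 higher and 7 lower, and scaling each to an FPKM sum of 1000000 gave 3 higher and 1 lower.

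By list, 2 of 8 other droplet proteins fell (median 0.02), 1 of 8 genes of triglyceride and sterol ester synthesis fell (median -0.30), 1 of 7 shuttle and synthetase genes rose and 1 fell (median 0.08), and 1 of 5 peroxisomal genes rose (median -0.11). None of 11 other mitochondrial oxidation genes passed (4 at an unadjusted p under 0.05, median -0.30), nor did any of 5 lipolysis genes or 2 other thioesterases (0 unadjusted in each, medians -0.16 and -0.08). Of 5 genes of uptake and binding 2 rose (median 0.51), of 4 PPAR receptors and coactivators 1 fell (median 0.04) and of 4 other PPAR targets and ketone body genes 1 rose (median 0.36).

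**Figure D4:**
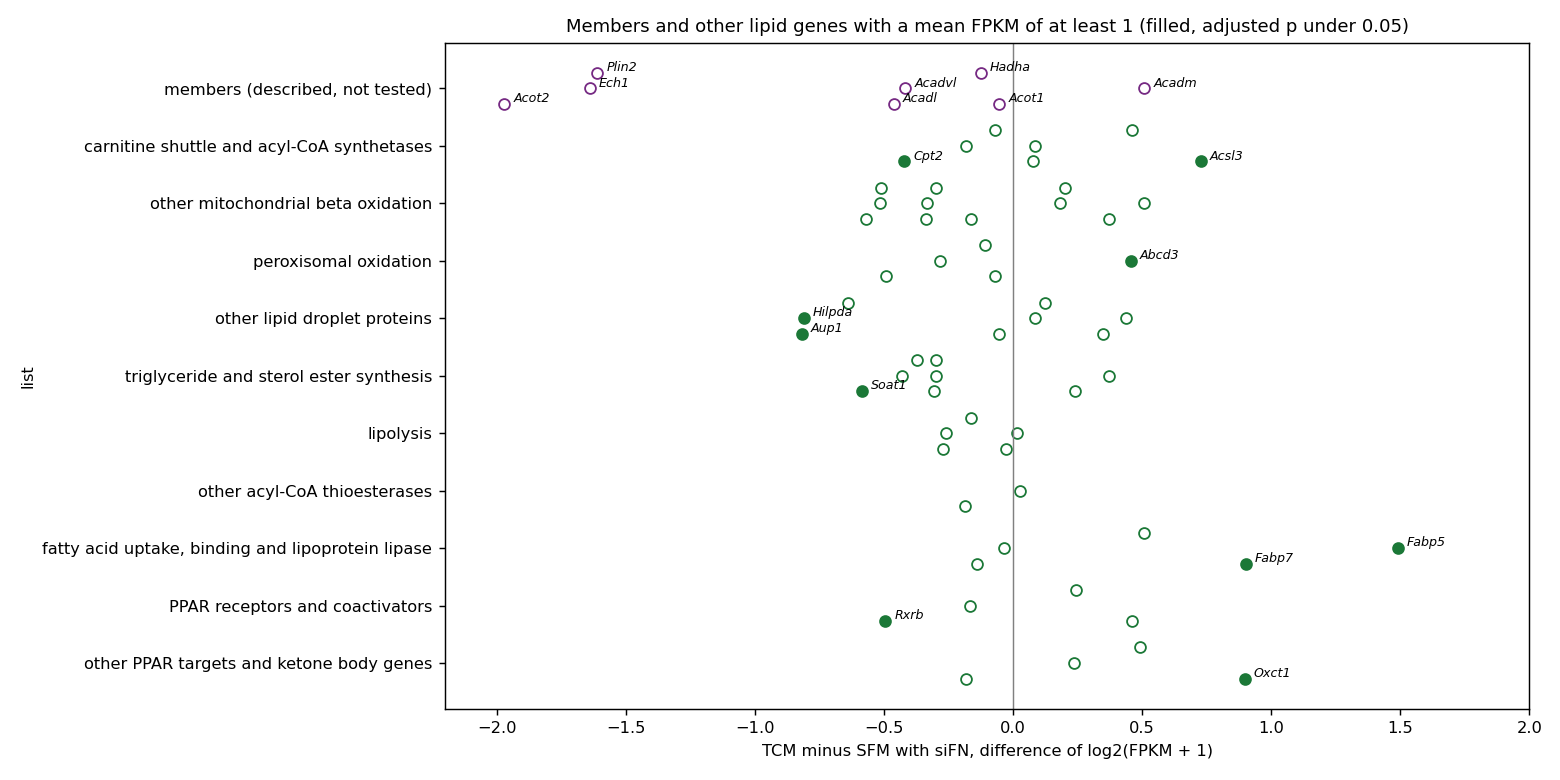
TCM minus SFM difference with siFN on the log2(FPKM + 1) scale (horizontal axis) for members and for each list of other lipid genes (rows), 1 point per gene with a mean FPKM of at least 1; filled points passed limma's adjusted threshold, and vertical offsets within a row carry no meaning. Acot2, Ech1 and Plin2 lie at -1.97 to -1.61, and the other lipid genes between -0.82 (Aup1) and 1.49 (Fabp5).

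For siFN on SFM matrix, 4 of the 58 genes passed, 6.90% against 6.92% of all genes (medians 0.04 and 0.01). Aup1 rose (0.71 ± 0.16, adjusted p = 0.0498), and Fabp7 (-1.01 ± 0.17, adjusted p = 0.0335), Oxct1 (-0.89 ± 0.16, adjusted p = 0.0354) and Dbi (-0.98 ± 0.21, adjusted p = 0.0456), which encodes the acyl-CoA binding protein, fell in limma's test. Acsl3 missed the threshold narrowly (-0.83 ± 0.19, adjusted p = 0.0508). Fabp5 did not pass either, with 20.0 and 19.5 FPKM in SFM siKLF4-siFN and SFM siFN against 48.1 and 43.0 in SFM siKLF4 and SFM siNT. That count was 0 without SFM siKLF4-siFN, SFM siKLF4, SFM siNT or either TCM library with siFN, 3 without TCM siKLF4 or TCM siNT, and 15 without SFM siFN.

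For the medium by siFN interaction 6 of 58 passed, 10.3% against 7.17% of all genes (medians -0.14 and -0.06). Fabp5 (1.80 ± 0.38), Fabp7 (1.33 ± 0.24) and Oxct1 (1.24 ± 0.22) had a higher medium difference (TCM minus SFM) where siFN was given, and Hilpda (-1.36 ± 0.30), Aup1 (-1.08 ± 0.23) and Rxrb (-0.81 ± 0.18) a lower one, with adjusted p from 0.0419 to 0.0480 in limma. The count was 4 without TCM siKLF4, 19 without SFM siFN and 0 without any other library. Scaled to an FPKM sum of 1000000, 2 passed, both with a higher difference, against the 3 and 3 above.

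No other lipid gene passed for medium, siKLF4 or siFN over all libraries in limma (0 at an unadjusted p under 0.05 in each). The smallest p for medium were those of Cpt2 (-0.24 ± 0.10) and Acot10 (-0.27 ± 0.14), for siKLF4 those of Agpat2 (0.16 ± 0.11) and Pex11a (-0.11 ± 0.08), and for siFN those of Dbi (-0.48 ± 0.25) and Acot10 (-0.27 ± 0.14). For TCM minus SFM without siFN, limma called 0 of the 58, 3 of which had an unadjusted p under 0.05, and for siFN on TCM matrix 0, with 4 unadjusted. The missing calls do not show that these factors had no effect.

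**Figure D5:**
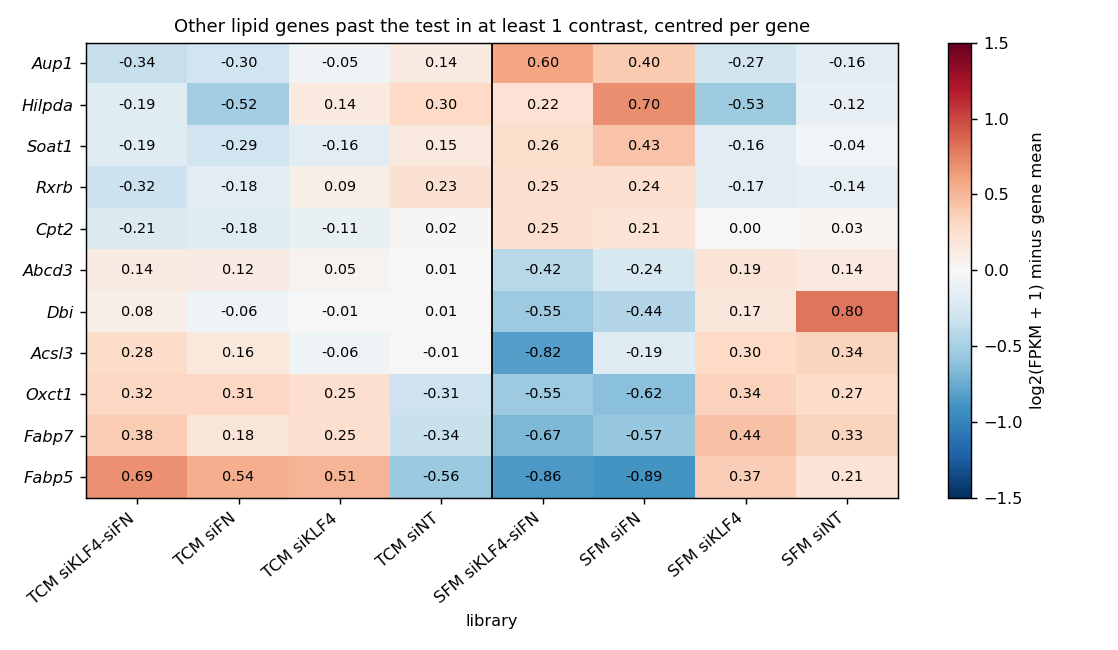
Values of log2(FPKM + 1) minus the gene's mean over the 8 libraries for the 11 other lipid genes that passed a test in at least 1 contrast (rows), with libraries in columns and TCM left of the black line. Fabp5 is at -0.56 in TCM siNT and at -0.86 and -0.89 in the SFM libraries with siFN, where Aup1 is at 0.14, 0.60 and 0.40.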

How the data were processed

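RNA of B16-F10 cells was sequenced in 8 libraries, 1 per condition. The authors deposited FPKM values, and STAR 2.4.1d, Partek and mm10 are named per the submitters' processing notes. Counting rule, annotation and strand setting: not given in the sources used here. The 6917 of 46477 rows whose mean FPKM reached 1 were analysed as log2(FPKM + 1) with limma 3.58.1 in R 4.3.3, using two-sided tests, a trended variance and an adjusted threshold of 0.05 (Benjamini-Hochberg, all genes). Medium, siKLF4 and siFN were fitted additively (4 residual degrees of freedom), and again with a medium by siFN term (3), from which the differences within a medium or siFN level came. The labels name no separate cultures, so the p-values cover only spread among these libraries, measured as their departure from the fitted terms. With 1 library per condition, that departure includes treatment differences the models leave out. In the model with the medium by siFN term, these are siKLF4 differences that change with medium or siFN. They cannot be told apart from technical spread or spread between cultures. Differences of at least 1 between single libraries were counted without a test. Both models were run on simulated data with planted changes and independent noise in each library. That run says nothing about how many calls in these libraries are false. Members and lists were chosen with earlier results of these data known. All members are named, and of the other lists every gene past the threshold, up to 8 per contrast with the smallest p, or the smallest p where none passed; in TCM minus SFM with siFN 10 passed and all are given. Of the 164 genes, 3 were matched through an older symbol. Coordinates are from GENCODE M21 (GRCm38). Depth was estimated in genes with 1 transcript over 600 bases as the step that put most low values within 0.05 read of a whole number, which held for 44.7% to 48.3% of them. Alternatives were another pseudocount, filter, scaling or variance model, and leaving out each library.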

Additional observations from a re-analysis of the deposited data

Results flagged for a closer look

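The TCM minus SFM difference of 3 members had opposite signs with and without siFN in every matched pair of libraries. The difference between these differences was -2.18 for Plin2, -0.74 for Acadvl and 0.68 for Acadm on the log2 scale. For Plin2 the pair without siFN that held siKLF4 differed by only 0.04, so its sign there carries little. None of these 3 genes was past limma's threshold for this contrast, and nothing is read from that, because the list was chosen on these libraries.

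In the limma test of the same contrast, 6 other lipid genes passed the threshold. Their TCM minus SFM difference with siFN, less that without it, was 1.80 for Fabp5, 1.33 for Fabp7 and 1.24 for Oxct1. It was -0.81 for Rxrb, -1.08 for Aup1 and -1.36 for Hilpda. No condition had more than 1 library, so no library could be checked against others of its group.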

How the results depend on the processing

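The effects over all libraries (medium, siKLF4, siFN), TCM minus SFM without siFN and siFN on TCM matrix kept a count of 0 other lipid genes under every alternative run. For TCM minus SFM with siFN the count of 10 became 6 with a pseudocount of 0.1, 0 with no filter, 4 with a mean FPKM of at least 5 and 4 with libraries scaled to an FPKM sum of 1000000, and 0 to 23 when leaving out each library. For the medium by siFN interaction the count of 6 became 0 with a pseudocount of 0.1, 0 with no filter and 2 scaled to that sum, and 0 to 19 when leaving out each library. For siFN on SFM matrix the count of 4 became 2 with a pseudocount of 0.1 and 0 with no filter, and 0 to 15 when leaving out each library. Scaling to that sum also lowers the weight of the pseudocount, and a fit without 1 library has 1 residual degree of freedom fewer; the cause of the other shifts was not tested. Among the 10 members, no difference of at least 0.5 changed sign except, without TCM siNT, that of TCM minus SFM without siFN for Plin2 (-0.10 against 0.57) and Acot2 (-0.10 against 0.53), under any alternative run. The Plin2 difference for siFN on SFM matrix ranged from 0.88 to 1.90 when leaving out each library, that of Acot2 from 1.49 to 1.93, and that of Angptl4 reached 2.41 across all alternatives because its low values weigh more under a smaller pseudocount. Libraries could not be paired by replicate, because each condition has 1 library and the labels give no replicate numbers. The matched pairs of single libraries were matched by the other factors only. Angptl4 is limited by depth, with fewer than 10 estimated reads in 5 libraries.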

Other observations

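Several genes known as regulators, partners or targets in this pathway were scarcely detected. Ppara had a mean of 0.00495 FPKM and Pparg of 0.000217 over the 8 libraries, Cd36 of 0.000166, and Pdk4, Fabp4, Cyp4a10 and Cyp4a14 were listed at 0 in all of them. Ppard, the remaining PPAR gene, had 1.03 FPKM in TCM siKLF4-siFN, 1.08 in TCM siFN, 1.22 in TCM siKLF4 and 1.13 in TCM siNT. Its SFM values, in that order, were 1.41, 1.21, 1.03 and 1.07 FPKM.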
